A study of Homo sapiens with 6 samples.

Results

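YAP1, WWTR1 (which encodes TAZ), TEAD1 and TEAD4 were followed together with 6 genes that these factors are known to switch on or that bear on their activity, CCN1, CCN2, ANKRD1, AMOTL2, AJUBA and LATS2, in MDA-MB-231 cells given TCI04 or the vehicle. Every probe set, other than array controls, whose single gene symbol in the platform annotation was 1 of these 10 genes was taken, which gave 24 of 54613 probe sets and 10 of 19775 named genes. No probe set named 1 of the 10 beside another gene. MDA-MB-231 is a human triple-negative breast cancer line, grown here in medium with serum. The 3 TCI04 arrays measured RNA from cells kept for 48 h with 50 µM TCI04, for which the labels give a code name alone, and the 3 PBS arrays RNA from cells kept for 48 h with phosphate-buffered saline. The labels name no separate cultures behind the arrays, so the spread that the p-values rest on is that between arrays and could be technical.

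The Hippo pathway is a chain of kinases in which LATS1 and LATS2 phosphorylate the coactivators YAP and TAZ and so keep them out of the nucleus. Unphosphorylated YAP and TAZ bind TEAD transcription factors on DNA and raise the transcription of genes such as CCN1 and CCN2. The signal runs through phosphorylation and location of the proteins, which an expression array does not see, so the array reads it through the mRNA of the target genes. MDA-MB-231 is known as a line with high YAP and TAZ activity.

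The DNA that ties these genes to TEAD is shown first, since the target genes were read as the output of the pathway. TEAD factors bind a core of the letters GGAATG, which was searched on both strands of the RefSeq promoter windows (GRCh38.p14, 250 bases before to 50 bases after a start). Windows were found for 7 of the 10 genes, and those not matched were TEAD1, TEAD4 and CCN1. The core was present in 6 of 10 windows, from 6 of the 7 genes, and in 14% of all 35116 windows. CCN2 held 3 copies, as many or more of which were found in 0.128% of all windows, and ANKRD1 held 2, as many or more of which were found in 1.37%. Beside YAP1 and WWTR1 themselves, the genes were chosen as targets or as genes that bear on the pathway, so for the targets the count describes the choice. A match is not a measured binding site. The windows of CCN2 (chr6:131951373-131951622, minus strand) and ANKRD1 (chr10:90921088-90921337, minus strand) are printed because they hold the most copies, that of AMOTL2 (chr3:134374448-134374697, minus strand) because its copy lies on the opposite strand, and that of YAP1 (chr11:102110197-102110446, plus strand) because YAP1 is the gene whose groups did not overlap. Each is the 250 bases before the start, 5′ to 3′ on the strand of the gene, with the core or its reverse complement in capitals.
CCN2: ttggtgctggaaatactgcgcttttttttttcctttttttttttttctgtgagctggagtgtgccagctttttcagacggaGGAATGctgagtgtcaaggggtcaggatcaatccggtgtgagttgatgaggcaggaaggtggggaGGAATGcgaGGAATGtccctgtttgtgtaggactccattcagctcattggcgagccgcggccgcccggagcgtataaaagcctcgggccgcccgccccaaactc
ANKRD1: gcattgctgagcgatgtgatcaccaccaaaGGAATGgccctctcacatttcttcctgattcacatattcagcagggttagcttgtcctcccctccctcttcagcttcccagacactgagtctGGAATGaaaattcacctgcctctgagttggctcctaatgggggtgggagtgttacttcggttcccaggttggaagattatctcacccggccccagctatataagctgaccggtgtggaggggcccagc
AMOTL2: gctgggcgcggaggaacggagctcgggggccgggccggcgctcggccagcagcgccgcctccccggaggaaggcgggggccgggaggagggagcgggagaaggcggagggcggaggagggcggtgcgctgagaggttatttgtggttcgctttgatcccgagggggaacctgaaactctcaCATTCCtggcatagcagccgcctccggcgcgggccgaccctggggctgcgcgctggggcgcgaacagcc
YAP1: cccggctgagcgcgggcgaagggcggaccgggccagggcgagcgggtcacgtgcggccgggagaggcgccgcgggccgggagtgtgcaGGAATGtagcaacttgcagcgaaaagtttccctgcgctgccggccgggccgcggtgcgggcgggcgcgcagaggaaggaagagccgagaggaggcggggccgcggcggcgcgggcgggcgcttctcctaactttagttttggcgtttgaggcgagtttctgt

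In CCN2 the 3 copies began at bases -169, -104 and -95 from the start, and the last pair lay close together. In ANKRD1 they began at -220 and -128, in YAP1 at -162 and in the second AMOTL2 window, the one printed, at -69. Positions are counted from the RefSeq start that each window surrounds. For the second AMOTL2 and AJUBA windows and both WWTR1 windows that start lies inside the span of the gene. A second AJUBA window held 1 copy at -59, and LATS2 held 1 just downstream of its start, at base 10. Both WWTR1 windows and the first windows of AMOTL2 and AJUBA held none.

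**Figure D1:**
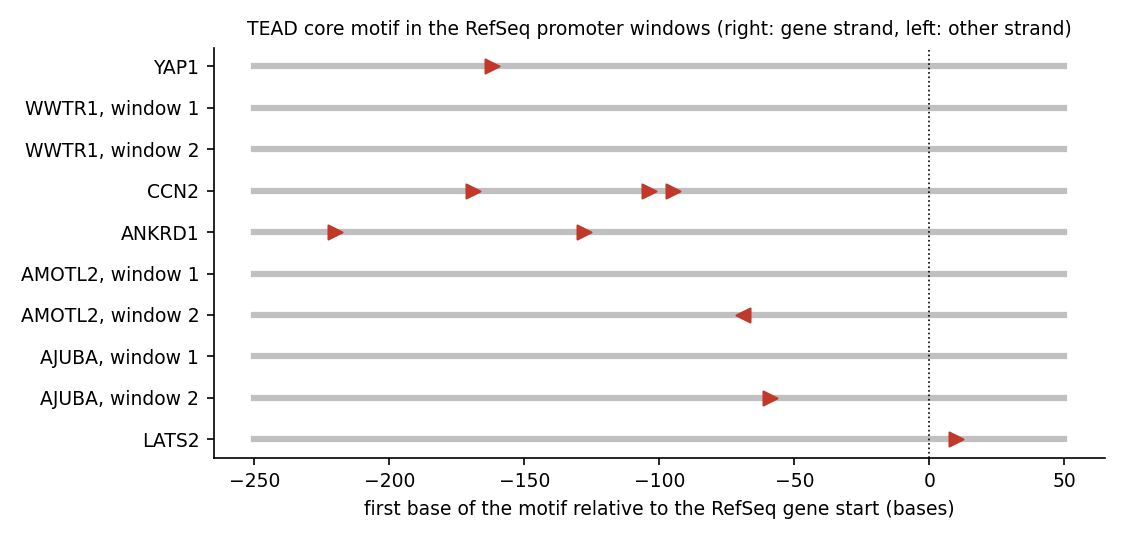
Position of the TEAD core in the 10 RefSeq promoter windows of 7 genes. The horizontal axis gives bases from the RefSeq start that each window surrounds. For WWTR1 and the second AMOTL2 and AJUBA windows that start lies inside the span of the gene. Grey bars are the window searched. Right-pointing marks are the core on the strand of the gene, and the left-pointing mark is its reverse complement. CCN2 holds 3 copies and ANKRD1 2, all before the start, whereas the LATS2 copy at base 10 lies after it.

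The values were MAS5 signals on a linear scale, scaled per array by the authors, with no detection calls in the sources used here. The median signal over all probe sets was 58.9 to 59.8 on the TCI04 arrays and 64.0 to 74.3 on the PBS arrays. TCI04 replicate 3 differed from the rest in a control ratio that bears on RNA quality. On it the ACTB control probe set for the 3′ end gave 3.33 times the signal of that for the 5′ end, against 1.70 and 1.71 on the other TCI04 arrays and 1.64 to 1.72 on the PBS arrays. The same ratio for GAPDH was closer to the rest, at 1.21 on this array. It was 0.97 and 1.08 on the other TCI04 arrays and 0.98 to 1.07 on the PBS arrays. For the 24 probe sets and the gene lists, the value without this array is also given where leaving it out moved a log2 difference or a median by over 1.5 times or turned its sign. The labelled cell line was checked against markers. All 8 genes listed as high in it were above the filter on dim probe sets. The brightest was VIM, a mesenchymal intermediate filament, at 27694 ± 1284 with TCI04 and 30225 ± 1966 with PBS (SD, n = 3 arrays each). The dimmest was SPARC, at 725 ± 73.0 with TCI04 and 777 ± 37.2 with PBS, below GATA3 of the low list. Of 6 receptor and epithelial genes listed as low, the cadherin CDH1 and the progesterone receptor PGR lay below the filter, and 4 lay above it. Passing the filter therefore does not by itself identify the line. GATA3, a luminal transcription factor, averaged 763 ± 92.3 with TCI04 and 872 ± 112 with PBS, the receptor ERBB2 411 ± 7.84 and 466 ± 62.8, FOXA1 112 ± 26.0 and 107 ± 23.2, and the oestrogen receptor ESR1 46.6 ± 19.3 and 29.3 ± 16.5. Of 12 luminal genes, some of them in the low list too, 10 were above the filter, with the keratin KRT18 at 15480 ± 578 with TCI04 and 16442 ± 1561 with PBS, and the list summed to 19025 to 21845 and 20020 to 23751. Another keratin, KRT8, measured 2227, 2313 and 996 with TCI04, against 2199, 2741 and 2582 with PBS, the low value being TCI04 replicate 3. Of the markers of other cell types, 2 of 9 fibroblast, 3 of 9 leukocyte and 3 of 8 endothelial genes were above that filter. Their summed signals were 555 to 792, 215 to 360 and 619 to 686 on the TCI04 arrays, and 639 to 748, 313 to 483 and 633 to 810 on the PBS arrays. In bulk RNA, a lower share of cells that express a gene and less of its RNA per cell cannot be told apart.

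The comparison asked whether the mRNAs of the YAP/TAZ/TEAD system differed in level after TCI04 relative to PBS. None of the 24 probe sets passed the test (limma on log2 signals, 0 higher and 0 lower at an adjusted p under 0.05), and the smallest adjusted p among them was 0.697. Over all genes, 1 of 32746 probe sets passed, 0.00305%, so a count of 0 among 24 says little about these genes in particular. All 24 probe sets lay above the filter on dim values, and 11 had a higher and 13 a lower mean with TCI04. At an unadjusted p under 0.05 there were 2 of 24, 1 of YAP1 with a higher and 1 of TEAD1 with a lower mean, where 7.08% of all tested probe sets reached it, 2.21% higher and 4.88% lower. On 2 probe sets, both of YAP1, the 3 TCI04 arrays did not overlap the 3 PBS arrays, where 13.5% of all tested probe sets had separate groups, 5.35% with all TCI04 arrays on top and 8.19% with all below.

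What the arrays did give for these genes was narrow intervals. The 95% interval of the log2 difference lay within 1.5-fold in both directions for 19 of the 24 probe sets, where 54.9% of all tested probe sets had such an interval. Taking for each gene its probe set with the highest mean, this held for 10 of 10 genes, against 66.5% of 13679 genes. The median half-width of the interval was 0.13 for the 10 genes and 0.28 for all genes. The 10 genes are bright, and the fit lets variance depend on level. The dimmest of these 10 probe sets, TEAD4 204281_at, averaged 690 with TCI04 and 780 with PBS, where the median of all values was 63.6. Genes of like signal were not compared, so the narrow intervals cannot be called particular to these genes. Of the 10 genes, 4 had a higher and 6 a lower mean with TCI04, with a median log2 difference of -0.01, beside 49.3% of all genes with a higher mean and a median of -0.003. Without TCI04 replicate 3, 3 had a higher mean and the median was -0.03. Centring every array on its median moved the median of all genes up by 0.16, which turned the count to 8 higher. Relative to the median of all genes, 4 of 10 lay above it as deposited and 5 of 10 after quantile normalization. The centring moves all genes alike, so with it the relative count is 4 of 10 by construction.

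**Figure D2:**
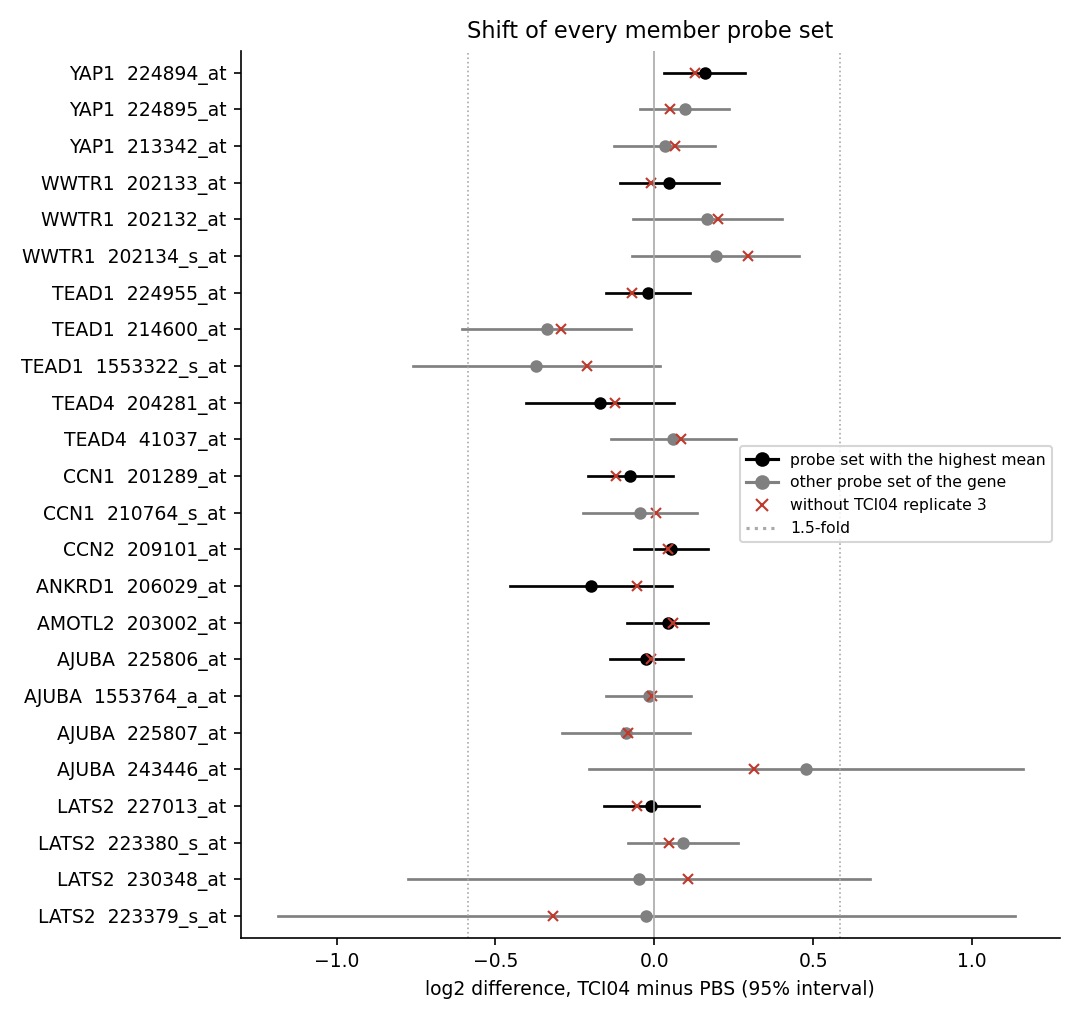
Log2 difference in signal, TCI04 minus PBS, of each of the 24 probe sets (dots, with bars for the 95% interval from limma; black, the probe set of each gene with the highest mean; grey, its other probe sets; crosses, the value without TCI04 replicate 3; dotted lines, 1.5-fold). All 10 black intervals lie within 1.5-fold, and the widest intervals belong to dim probe sets of AJUBA and LATS2.

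YAP1, the coactivator itself (chromosome 11: 102110447 to 102233424, GRCh38.p14), had the highest log2 difference among the 10 genes when each was read from its brightest probe set. Averaged over probe sets WWTR1 was higher, at 0.14 against 0.09 for YAP1. Its probe set with the highest mean (224894_at) measured 7621, 7522 and 8050.0 on the TCI04 arrays, against 7057, 7104 and 6629 on the PBS arrays. Every TCI04 array was above every PBS array. The means were 7731 ± 280.5 with TCI04 and 6930.0 ± 262 with PBS (SD, n = 3), a ratio of 1.12. The log2 difference was 0.16 (standard error 0.06), its 95% interval ran from 0.03 to 0.29, and it failed the correction (limma, adjusted p = 0.697).

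The second YAP1 probe set (224895_at) also had separate groups, at 3783, 3850.4 and 4190.3 with TCI04, against 3583, 3745 and 3731 with PBS. Its log2 difference was 0.10 (limma, adjusted p = 0.735). The third (213342_at) measured 1398.5, 1374 and 1296 with TCI04, against 1322, 1329 and 1325 with PBS, and there TCI04 replicate 3 lay below all PBS arrays. Its log2 difference was 0.03. The values of the 3 probe sets without TCI04 replicate 3 were 0.13, 0.05 and 0.06, so the sign was kept by all 3. It was also kept after quantile normalization, at 0.14, 0.07 and 0.02. The upper ends of the 3 intervals, 0.29, 0.24 and 0.19, lie well under the log2 value of a 1.5-fold rise.

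WWTR1, the gene of the paralogue TAZ (chromosome 3: 149517235 to 149724788), had higher means with TCI04 on all 3 of its probe sets, with overlapping groups on each. The probe set with the highest mean (202133_at) measured 4870.1, 4618 and 5346 with TCI04, against 4599, 4677 and 5065 with PBS, and its log2 difference of 0.05 became -0.01 without TCI04 replicate 3. The next (202132_at) measured 1310.5, 1262 and 1200.3 with TCI04, against 944, 1216 and 1219 with PBS. The low value there was PBS replicate 1, and without it the log2 difference of 0.17 was 0.05. The last (202134_s_at) measured 572, 632 and 485 with TCI04, against 513, 464 and 490.3 with PBS, a log2 difference of 0.19 (limma, adjusted p = 0.722) that was 0.29 without TCI04 replicate 3 and 0.11 without TCI04 replicate 2.

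TEAD1 and TEAD4 encode DNA-binding partners of YAP and TAZ. For TEAD1 (chromosome 11: 12674421 to 12944737) the probe sets gave different values. The one with the highest mean (224955_at) measured 7338, 7205 and 8063 with TCI04, against 7657, 7738 and 7502.5 with PBS. The TCI04 arrays lay on both sides of the PBS arrays, and the log2 difference was -0.02 with an interval from -0.15 to 0.11. It was 0.01 without TCI04 replicate 2 and -0.07 without TCI04 replicate 3.

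The other TEAD1 probe sets had lower means with TCI04. The second (214600_at) measured 562, 693 and 567 with TCI04, against 863, 765 and 684 with PBS, and only TCI04 replicate 2 and PBS replicate 3 overlapped. Its log2 difference was -0.34 (standard error 0.12), within an interval of -0.60 to -0.07 (limma, adjusted p = 0.697), and -0.29 without TCI04 replicate 3. The third (1553322_s_at) measured 270.03, 313 and 205 with TCI04, against 389, 347 and 287 with PBS, a log2 difference of -0.37 that was -0.21 without TCI04 replicate 3. Set against the first probe set, a contrast chosen after the values were seen, the log2 difference was lower by 0.32 for the second and by 0.35 for the third. An exact two-sided permutation test gave p = 0.2 for each, with overlapping groups. With 3 against 3 arrays that test cannot give a p under 0.1, so it cannot decide whether the probe sets differ.

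TEAD4 (chromosome 12: 2959397 to 3040676) had 2 probe sets of opposite sign. The first (204281_at) measured 683, 742 and 645 with TCI04, against 708, 871 and 761 with PBS, a log2 difference of -0.17 (limma, adjusted p = 0.722). PBS replicate 2 was the high array, and without it the value was -0.09. The second (41037_at) measured 679, 682 and 647 with TCI04, against 635, 666 and 623 with PBS, a log2 difference of 0.06. The groups overlapped on both.

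CCN1 and CCN2 encode secreted matricellular proteins, once called CYR61 and CTGF, and are the standard transcriptional readout of YAP and TAZ. CCN2 (chromosome 6: 131948176 to 131951372), the gene with 3 TEAD cores printed above, has 1 probe set (209101_at). It measured 14287, 14164 and 14523 with TCI04, against 13202, 14392 and 13869 with PBS. The TCI04 arrays were close together, and all 3 lay within or just above the range of the PBS arrays. The log2 difference was 0.05 (standard error 0.05), within an interval of -0.06 to 0.17 (limma, adjusted p = 0.820), which as a ratio runs from 0.956 to 1.13. It was 0.04 without TCI04 replicate 3.

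CCN1 (chromosome 1: 85580761 to 85583950) measured 30759.5, 27913 and 32177 with TCI04, against 31191, 32894 and 31537 with PBS, on its probe set with the highest mean (201289_at). TCI04 replicate 2 was the low array. The log2 difference was -0.08 with an interval from -0.21 to 0.06 (limma, adjusted p = 0.770), and it was -0.02 without TCI04 replicate 2 and -0.12 without TCI04 replicate 3. The second probe set (210764_s_at) measured 23381, 27760.5 and 22910.2 with TCI04, against 23269, 26909 and 26064 with PBS, a log2 difference of -0.04. Here TCI04 replicate 2 was the highest of the 6 arrays, whereas it was the lowest on the first probe set, and the value was 0.01 without TCI04 replicate 3. Both CCN1 values turned positive after quantile normalization, at 0.04 and 0.02, so no direction is given for CCN1.

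ANKRD1 encodes a muscle ankyrin-repeat protein that is also used as a YAP/TAZ target (chromosome 10: 90912096 to 90921087, 2 TEAD cores). Over all 6 arrays it had the lowest log2 difference of the 10 genes, each read from its brightest probe set. Averaged over probe sets TEAD1 was lower, at -0.24. Without TCI04 replicate 3 the brightest probe sets of TEAD4, CCN1 and TEAD1 were lower than that of ANKRD1, at -0.13, -0.12 and -0.07. Its only probe set (206029_at) measured 1757, 1761 and 1302 with TCI04, against 1969.8, 1726 and 1800.1 with PBS. The low value was that of TCI04 replicate 3, the array with the high ACTB 3′ to 5′ ratio, and the other TCI04 arrays lay inside the PBS range. The log2 difference was -0.20 (standard error 0.12), within an interval of -0.46 to 0.06 (limma, adjusted p = 0.710), and -0.06 without TCI04 replicate 3. What the RNA quality of that array contributed was not tested.

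**Figure D3:**
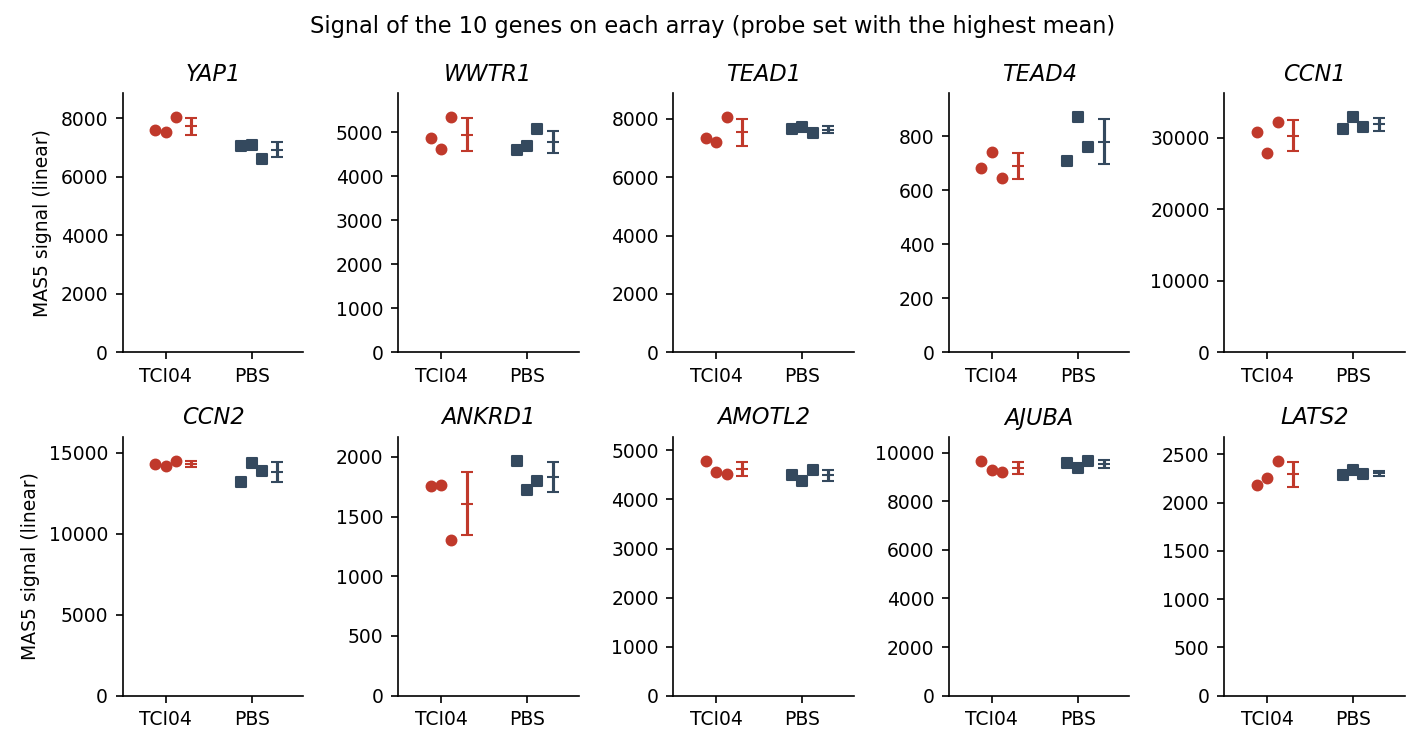
MAS5 signal (linear, vertical axes from 0) of the 10 genes on each array, from the probe set with the highest mean, with TCI04 arrays as circles and PBS arrays as squares, replicates 1 to 3 from left to right; dashes and bars are mean and SD (n = 3). The groups separate for YAP1 alone, and the low ANKRD1 point is TCI04 replicate 3 at 1302.

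AMOTL2, AJUBA and LATS2 act on the pathway and are also among its targets. AMOTL2, an angiomotin-family scaffold that binds YAP (chromosome 3: 134355345 to 134375417), measured 4794, 4561 and 4527 with TCI04, against 4506, 4379 and 4602 with PBS (203002_at). The groups overlapped and the log2 difference was 0.04 with an interval from -0.09 to 0.17.

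AJUBA, a LIM-domain protein that restrains the LATS kinases (chromosome 14: 22971177 to 22982551), has 4 probe sets. The one with the highest mean (225806_at) measured 9642, 9263 and 9180.4 with TCI04, against 9558, 9353 and 9673 with PBS, a log2 difference of -0.03 with an interval from -0.14 to 0.09. The next 2 gave -0.02 (1553764_a_at) and -0.09 (225807_at), also with overlapping groups. Without TCI04 replicate 3 the first and second of these 3 probe sets were both at -0.01. The dimmest (243446_at) measured 113, 93.4 and 149 with TCI04, against 128, 78.8 and 50.8 with PBS. Its log2 difference of 0.48 was the furthest from 0 among the 24 probe sets, with an interval from -0.20 to 1.16, and it was 0.19 without PBS replicate 3 and 0.31 without TCI04 replicate 3.

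LATS2, the kinase that phosphorylates YAP and TAZ (chromosome 13: 20973036 to 21061586), also has 4 probe sets. The one with the highest mean (227013_at) measured 2186, 2257 and 2437 with TCI04, against 2287, 2337 and 2296 with PBS. The TCI04 arrays lay on both sides of the PBS arrays, and the log2 difference was -0.01 with an interval from -0.16 to 0.14, or -0.05 without TCI04 replicate 3. The second (223380_s_at) measured 1373, 1404 and 1518 with TCI04, against 1358, 1406 and 1271 with PBS, a log2 difference of 0.09 that was 0.05 without TCI04 replicate 3.

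The remaining LATS2 probe sets were close to the filter signal of 33.9 and carried no usable direction. One (230348_at) averaged 54.3 ± 17.9 with TCI04 and 56.7 ± 19.4 with PBS (SD, n = 3). The other (223379_s_at) measured 10.8, 53.0 and 57.7 with TCI04, against 15.5, 50.9 and 50.7 with PBS, with an interval from -1.18 to 1.13. On it replicate 1 was the low array in both groups. Without TCI04 replicate 3 their log2 differences of -0.05 and -0.03 were 0.11 and -0.32.

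Across the 6 arrays the 10 genes did not move as a block. Over the 45 pairs of genes, with the same probe sets, Pearson correlations of log2 signal ran from -0.80 to 0.89 with a median of 0.06, and 25 were positive. These are descriptions over 6 arrays that share their scaling and include TCI04 replicate 3. CCN1 and CCN2, which respond together to YAP in textbook experiments, had a Pearson r of 0.11 and a Spearman rho of 0.49. YAP1 and CCN2 had 0.58 and 0.77. The highest value was that of TEAD1 and LATS2, at 0.89 by both measures, and the lowest that of WWTR1 and ANKRD1, at -0.80 and -0.60. On TCI04 replicate 3 alone, 5 of the 10 genes had their highest and 3 their lowest value of the 6 arrays.

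The rest of the Hippo pathway was read from a list of 40 other genes, of which 35 were tested. None passed (limma, 0 higher and 0 lower), with 3 higher and 0 lower at an unadjusted p under 0.05. Of all genes 0.00731% passed and 7.00% reached the unadjusted threshold, 2.89% higher and 4.11% lower. Of the 35, 20 had a higher and 15 a lower mean with TCI04, with a median log2 difference of 0.05, beside -0.003 for all genes. Without TCI04 replicate 3 the median was 0.03 and 21 were higher. When a gene's probe sets were averaged instead, 12 were higher. For 5 genes all TCI04 arrays were above all PBS arrays, where 6.65% of all genes were, and for 0 they were below, where 6.89% of all genes were. In either direction groups were separate for 14.3% of the 35, close to the 13.5% of all genes. These counts use the brightest probe set of each gene. For 30 of the 35 the interval lay within 1.5-fold.

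STRN, a striatin scaffold of the phosphatase complex that opposes the Hippo kinases, averaged 1983 ± 96.8 with TCI04 and 1675 ± 253 with PBS, a log2 difference of 0.25, while its other 8 tested probe sets gave from -0.79 to 0.21. On the lowest of these all TCI04 arrays lay below the PBS arrays, and on the highest all lay above. BTRC, the ubiquitin ligase subunit that targets phosphorylated YAP and TAZ for degradation, averaged 658 ± 14.8 with TCI04 and 564 ± 24.5 with PBS, a log2 difference of 0.22, with -0.15 and -0.02 on its other probe sets. The AJUBA relatives WTIP and LIMD1 had log2 differences of 0.42 and 0.16. LIMD1 gave -0.52 and -0.14 on its other probe sets, and on the first of these all TCI04 arrays lay below the PBS arrays. SLMAP, a further member of the phosphatase complex, gave 0.08, and 0.14 and 0.05 on its other probe sets. Each of these 5 genes failed the correction, with adjusted p from 0.697 to 0.794 (limma), and for STRN, BTRC and LIMD1 the probe sets of a gene disagreed in sign. The genes with the highest signal, FRMD6, an upstream activator, and the LATS cofactor MOB1A, had log2 differences of -0.02 and 0.05. The other FRMD6 probe set gave -0.03. Those of MOB1A ran from -0.02 to 0.15, and on the highest all TCI04 arrays lay above the PBS arrays. Without TCI04 replicate 3 the brightest probe set gave 0.04 for SLMAP, -0.06 for FRMD6 and 0.03 for MOB1A.

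A second list held 28 other genes described as YAP/TAZ targets, of which 25 were tested and 0 passed (limma, with 0 at an unadjusted p under 0.05). Of all genes 0.00731% passed and 7.00% reached the unadjusted threshold, so counts of 0 among 25 say little about these genes. Of the 25, 16 had a higher and 9 a lower mean with TCI04, with a median log2 difference of 0.01, and for 24 of 25 the interval lay within 1.5-fold. The median was -0.003 without TCI04 replicate 3. The counts of higher means were 12 without that array, 12 after quantile normalization and 10 with probe sets averaged. CRIM1, a membrane protein that binds growth factors, was the only one of the 25 with separate groups, where 13.5% of all genes had them and 6.65% had all TCI04 arrays on top. It measured 6393, 6202 and 6505 with TCI04, against 6101, 6034 and 5872 with PBS. Its log2 difference was 0.08, and its other probe sets gave 0.10 and -0.15. The genes with the highest signal, the receptor kinase AXL and the ectonucleotidase NT5E, both had log2 differences of 0.03, with -0.20 on the other probe set of AXL and 0.03 to 0.17 on those of NT5E. Without TCI04 replicate 3 the brightest NT5E probe set was at 0.02.

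A last list held 25 actin genes and targets of SRF, a factor that also drives CCN1 and responds to actin, of which 20 were tested. None of the 20 passed, where 0.00731% of all genes did (limma, with 2 lower at an unadjusted p under 0.05, where 4.11% of all genes were). Of the 20, 6 had a higher and 14 a lower mean with TCI04, with a median of -0.09. The median was -0.003 and the count of higher means 10 without TCI04 replicate 3. ACTB, 1 of the 2 genes under the unadjusted threshold, was at -0.22 without that array. What that array contributed to the shift of the list was not tested. The groups were separate for 1 gene upward, VCL, and 1 downward, ACTB, where 13.5% of all genes had separate groups. ACTB averaged 38881 ± 2809 with TCI04 and 44965 ± 1655 with PBS, a log2 difference of -0.21 (limma, adjusted p = 0.697) that was -0.08 after quantile normalization, with -0.12 and -0.10 on its other probe sets. VCL, which links actin to adhesion sites, had a log2 difference of 0.04, and -0.07 on its other probe set, and the protease subunit CAPN2 gave -0.03, or -0.05 without TCI04 replicate 3. FOS, also a known target of SRF, was not on this list, so the count of 0 does not cover it. It was the 1 probe set past the threshold anywhere, at 471, 506 and 560 with TCI04, against 1086, 1186 and 1183 with PBS.

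**Figure D4:**
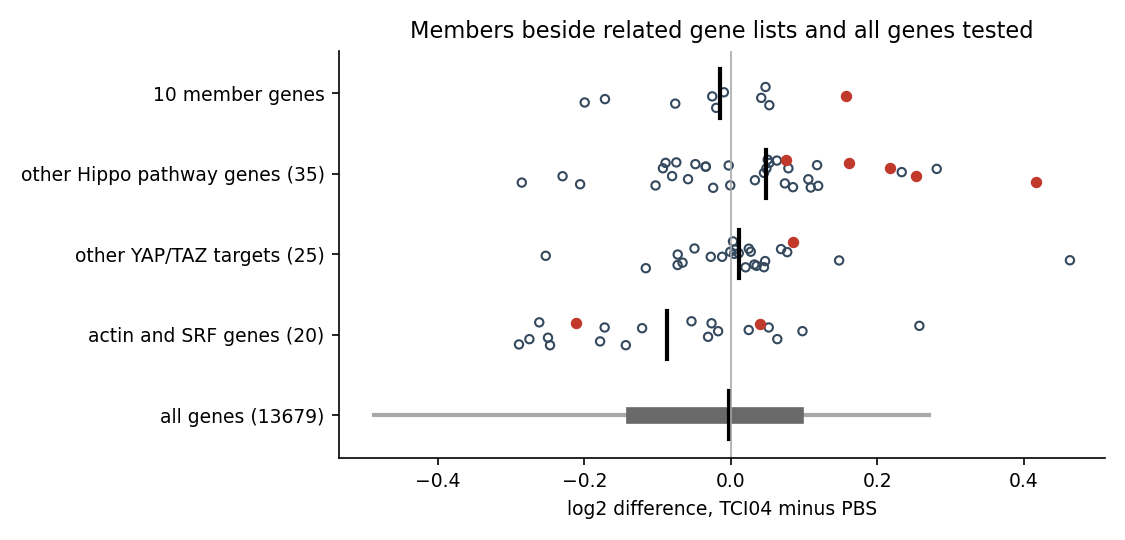
Log2 difference, TCI04 minus PBS, of the 10 genes and of 3 related lists (1 point per gene; filled, genes whose TCI04 and PBS arrays do not overlap; black bars, medians), above the 13679 genes tested (thin line, 5th to 95th percentile, -0.49 to 0.27; thick line, quartiles, -0.13 and 0.09). The 10 genes lie between -0.20 and 0.16, inside the spread of all genes.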

How the data were processed

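RNA of 6 samples was measured on Affymetrix arrays. The deposited intensity values are 1 signal per probe set and array on a linear scale; MAS5 is named in the submitters' processing notes, and neither its version nor its detection calls were given in the sources used here. The trimmed mean, without 2% at each end, was 500.1 on every array, so the authors' values had been scaled per array.

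Of 54675 probe sets, 62 were controls; 41091 others had 1 gene symbol (41037 matched to RefSeq by Entrez ID, with 0 symbols changed), 1801 several and 11721 none. An offset of 10.96, the table's 20th percentile, was added to each signal before taking log2, which understates differences of dim probe sets. Probe sets with a mean log2 level under the 40th percentile (a signal of 33.9) were left out, leaving 32746. A linear model (limma 3.58.1 in R 4.3.3, eBayes allowing for a trend of variance with level; two-sided; differences are TCI04 minus PBS) was fitted to all of them with Benjamini-Hochberg adjustment and a threshold of 0.05. A gene was represented by whichever of its probe sets had the highest mean. The steps were tested on simulated data.

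The genes, lists and tests were chosen with earlier results of these data known. All members were named; from each list, passing genes, up to 6 with separate groups and the 2 with the highest mean were named, beside FOS and ACTB. Alternatives were other scalings, offsets, filters, probe set rules, variance models, weights per array, blocking by replicate number and single arrays left out. Protein sequences were not used here.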

Additional observations from a re-analysis of the deposited data

How the results depend on the processing

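None of the 24 probe sets passed in any of 18 alternatives (limma or the ordinary t-test), and the lowest adjusted p among them was 0.281. The sign was kept in all alternatives by 14 probe sets and turned in at least 1 by 10, none of which had passed. Median centring, which moved the median of all genes up by 0.16, gave positive values for TEAD1 224955_at (0.14), CCN1 201289_at (0.084) and 210764_s_at (0.115), AJUBA 225806_at (0.13), 1553764_a_at (0.14) and 225807_at (0.071), and LATS2 227013_at (0.15), 230348_at (0.11) and 223379_s_at (0.13). Relative to the median of all genes each of these was as negative as before, by construction, since the centring moves all genes alike. Quantile normalization gave 0.040 and 0.025 for CCN1 201289_at and 210764_s_at, and 0.12 and 0.15 for LATS2 230348_at and 223379_s_at. Array weights gave 0.0057 for AJUBA 1553764_a_at, and an offset at the table median of 63.6 gave 0.0083 for LATS2 223379_s_at. With single arrays left out, values ran from -0.010 to 0.095 for WWTR1 202133_at, -0.070 to 0.011 for TEAD1 224955_at, -0.132 to 0.0064 for CCN1 210764_s_at, -0.062 to 0.018 for AJUBA 1553764_a_at, -0.054 to 0.024 for LATS2 227013_at, -0.26 to 0.17 for 230348_at and -0.43 to 0.51 for 223379_s_at. In the whole table the 1 lower probe set, FOS, went to 0 with median centring, eBayes without trend and the ordinary t-test. Leaving out 1 array at a time it was 1 without TCI04 replicate 3 and 0 without any other array, and no setting gave a higher one. Median centring raised the genes with a higher mean to 8 of 10, 32 of 35 other Hippo genes and 12 of 20 actin and SRF genes. Averaging probe sets gave 12 other Hippo genes, 10 other targets and 3 actin and SRF genes, and leaving out probe sets ending in _x_at and _s_at gave 2 of the last, among fewer genes; with single arrays left out these last ran from 6 to 10. Causes beyond these constructions were not tested. Replicate numbers are shared between the groups in the labels, which do not say that they pair the arrays, so they were not taken as pairs. The deviations of same-numbered arrays correlated at 0.0036, 0.062 and 0.050. Arrays of different numbers were not compared, so these values cannot decide whether the arrays are paired. With the replicate number as a block 0 of the 24 probe sets and 1 probe set in the whole table passed. The number of arrays limits precision, and for dim probe sets the signal does too.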

Other observations

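Genes whose level over the 6 arrays was most like that of CCN1 and CCN2 were looked up among the other 13678 tested genes. For CCN1 they were ZNF460, RBM5 and FGF22, with Pearson r of 0.988, 0.985 and 0.979 and Spearman rho of 1, 0.83 and 0.94. For CCN2 they were SHPK, PPP1R18 and IL9R, with Pearson r of 0.991, 0.989 and 0.986 and Spearman rho of 0.94, 1 and 0.94. Over 6 arrays such values are common: 114 genes had an r over 0.9 with CCN1 and 191 with CCN2. None of the other 9 genes of the YAP/TAZ/TEAD group was among the 3 closest to either.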
